A study of Danio rerio with 9 samples.

Results

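The late-onset recent gene models were 50 of the 9436 genes in the deposited per-stage table of labelled zebrafish (Danio rerio) embryo RNA. They were chosen on measured values: an Ensembl gene ID numbered 84000 or higher, at least 5 FPKM at the 512-cell stage, a 512-cell value at least 16 times the 128-cell value after adding 0.1 FPKM to both, and a 256-cell value under 0.2 of the 512-cell value. FPKM counts sequenced fragments per unit of transcript length and of library size, which puts genes of different length on a common scale. The zinc-finger genes znf1089, znf1127 and drll.3 and symbols starting with znfl were to be left out, and 0 genes had to be removed for that reason. The 50 members were 3.97% of the 1259 genes of the table with IDs in that range, and all 50 were also in the table of single libraries.

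All embryos were AB wild-type and were collected at the 128-cell, 256-cell or 512-cell stage. For the labelled groups, 4-thio-UTP, a uridine nucleotide that RNA polymerases build into new RNA, was injected at the 1-cell stage as a solution of 50 mM, with 1 nl per embryo. RNA carrying it was then biotinylated and captured on streptavidin beads. Each stage has 2 labelled libraries, which the labels call technical replicates, and 1 library from unlabelled embryos taken through the same capture. The injection protocol is attached to all 9 samples, and whether the unlabelled embryos were mock-injected is not stated. How many embryos were pooled per library is not stated either. These are whole-embryo samples, in which more cells making an RNA and more RNA per cell cannot be told apart.

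The early cleavage embryo runs on RNA and protein that the mother loaded into the egg. Its own genome is switched on around the mid-blastula transition, which in zebrafish falls close to these stages. The first genes to be copied are therefore seen best in captured new RNA, where stored maternal RNA is background. The earliest zygotic RNAs of zebrafish include many from expanded gene families such as the zinc fingers.

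Of the 50 members, 12 had a symbol and 38 had none, so 24% were named against 79.2% of all 9436 genes and 45.0% of the 1259 genes in the same ID range. The 12 comprised 8 ordinary symbols and 4 clone-type ones. The ordinary ones were apela, hwa, pimr186, plekhn1 and the zinc-finger genes znf1042, znf1044, znf1048 and znf1058. In the whole ID range 25 of 566 symbols began with znf. By symbol, 5 of the 12 matched a RefSeq gene of assembly GRCz12tu, and all 5 were annotated as protein coding (apela, hwa, plekhn1, pimr186 and si:dkey-11o15.10). In that assembly apela lies between the coding genes tmem192 and marchf1, and pimr186 lies beside pimr187, a gene of the same Pim-related kinase family. The deposited transcript table held a row with exactly the same values at all 3 stages for 43 members (86%), as it does for a gene measured through 1 transcript. The same was true of 54.8% of all genes, 94.1% of the 118 early-onset genes in the same ID range and 60.2% of the 103 long-annotated late-onset genes with lower IDs. Those sets met the same thresholds except that the former had a 256-cell value at or above 0.2 of the 512-cell value, and the latter an ID below the limit. The exclusion of genes by symbol was not applied to those sets. The 7 members without such a row included apela, plekhn1, znf1042 and znf1058.

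The libraries differed in overall level, which touches every value below. The number of genes reaching 1 FPKM was lowest in unlabelled 512-cell RNA (4035) and highest in replicate 1 of labelled 512-cell RNA (7416). Across 5525 genes at 1 FPKM or more in both 512-cell replicates, the median ratio of replicate 1 to replicate 2 was 2.0996. The 13 mitochondrial genes made up 12.8% to 42.7% of all FPKM in labelled RNA, and 0.367% to 0.456% in unlabelled RNA. Of 20 symbols of maternal mRNAs, which include different spellings of the same gene, 10 were found. Of these, 9 or 10 reached 1 FPKM in each of the 9 libraries. Their summed level was 306 to 781 FPKM in labelled and 155 to 425 FPKM in unlabelled libraries. The highest in every library was nanog, at 172 to 503 FPKM in labelled and 79.7 to 225 FPKM in unlabelled libraries. Of 13 early zygotic symbols 10 were found, with a summed level of 9.85 to 2011 FPKM in labelled and 1.72 to 4.33 FPKM in unlabelled libraries. Of 18 symbols of differentiated tissues only actc1a was found, at 0 in both labelled 128-cell libraries and at 3.35 and 1.09 FPKM in the labelled 512-cell libraries.

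**Figure D1:**
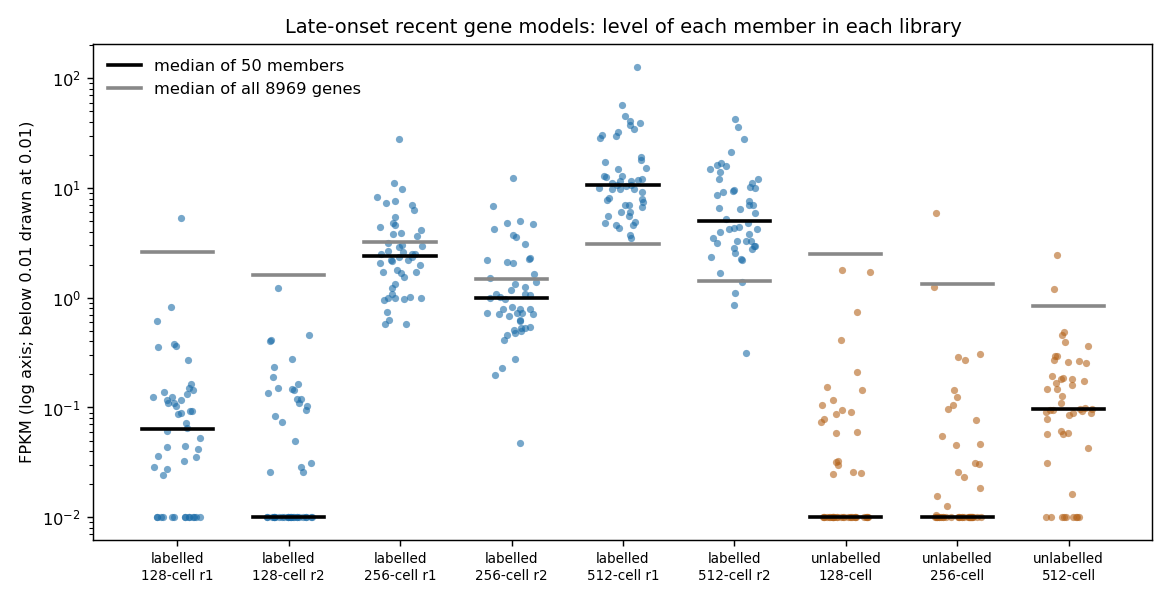
FPKM of each of the 50 members (points, log axis) in each of the 9 libraries, labelled in blue and unlabelled in brown, with the median of the members in black and of all 8969 genes in grey. The members' medians are 10.6 and 5.01 FPKM in the labelled 512-cell libraries, and in the unlabelled 512-cell library 0.0968 FPKM.

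As a group the members were near 0 in labelled 128-cell RNA, at a low level in 256-cell RNA and clearly present in 512-cell RNA, which is the pattern that chose them and is given as a description. Their median was 0.0630 and 0.00628 FPKM in the labelled 128-cell replicates, 2.42 and 0.992 FPKM at 256-cell and 10.6 and 5.01 FPKM at 512-cell. Over all 8969 genes the medians were 2.59 and 1.62, 3.21 and 1.49, and 3.10 and 1.42 FPKM. At 128-cell 12 and 24 members were listed at 0, against 2.46% and 3.31% of all genes, and 10 were at 0 in both replicates. At 256-cell no member was at 0, against 0.223% and 0.769% of all genes. There 42 members in replicate 1 and 25 in replicate 2 reached 1 FPKM, against 80.9% and 62.5% of all genes. At 512-cell the counts reaching 1 FPKM were 50 and 48, against 82.7% and 62.5%. The plot of levels by library shows the members crossing from below the all-gene median at the earlier stages to above it at 512-cell.

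Both labelled 256-cell libraries lay above both labelled 128-cell libraries for 49 of 50 members, against 10.6% of 7697 tested genes. Both labelled 512-cell libraries lay above both labelled 256-cell libraries for 45 of 50, against 7.81% of tested genes. The rule used the 256-cell share of the 512-cell value and held the 128-cell level low, so nothing is read from the counts. It set no condition on 256-cell against 128-cell directly. The 5 members whose 512-cell and 256-cell libraries overlapped were pimr186, ENSDARG00000092441, ENSDARG00000093115, ENSDARG00000086690 and ENSDARG00000090587; in each, 512-cell replicate 2 was below 256-cell replicate 1.

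The late onset rests in part on the scale of the per-stage table. Its values were a median of 1.49 times the mean of the 2 libraries at 512-cell, 1.08 times at 256-cell and 0.676 times at 128-cell over all genes above 0 in both. For the members these ratios were 1.52, 1.09 and 0.754. In the per-stage table the 256-cell value was 4.96% to 19.96% of the 512-cell value, with a median of 15.9%. Within replicate 1 the median share was 22.4% (6.22% to 39.0%), and within replicate 2 it was 19.0% (7.03% to 59.3%). Both replicates stayed under 20% for 14 members, and neither did for 20. The early-onset set had medians of 50.4% and 49.4% in the replicates and 0 of 118 genes under 20% in both. The long-annotated set had medians of 19.6% and 17.7%, and 43 of 103 genes under 20% in both.

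Members close to the limits were as follows. The lowest 512-cell stage values inside were 5.22 FPKM (ENSDARG00000087824) and 5.28 FPKM (ENSDARG00000090220), and the nearest outside were 4.90 FPKM (ENSDARG00000094267) and 4.87 FPKM (si:dkey-54j5.3). The smallest ratios of 512-cell to 128-cell inside were 16.4 for hwa and 19.6 for ENSDARG00000088562, and the nearest outside were 14.9 and 11.7. The largest shares of 256-cell inside were 0.1996 (ENSDARG00000095554) and 0.197 (ENSDARG00000091176), and just outside lay 0.2037 (ENSDARG00000086478) and 0.2043 (WEE1). The limit on onset therefore cut through a continuous run of values.

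**Figure D2:**
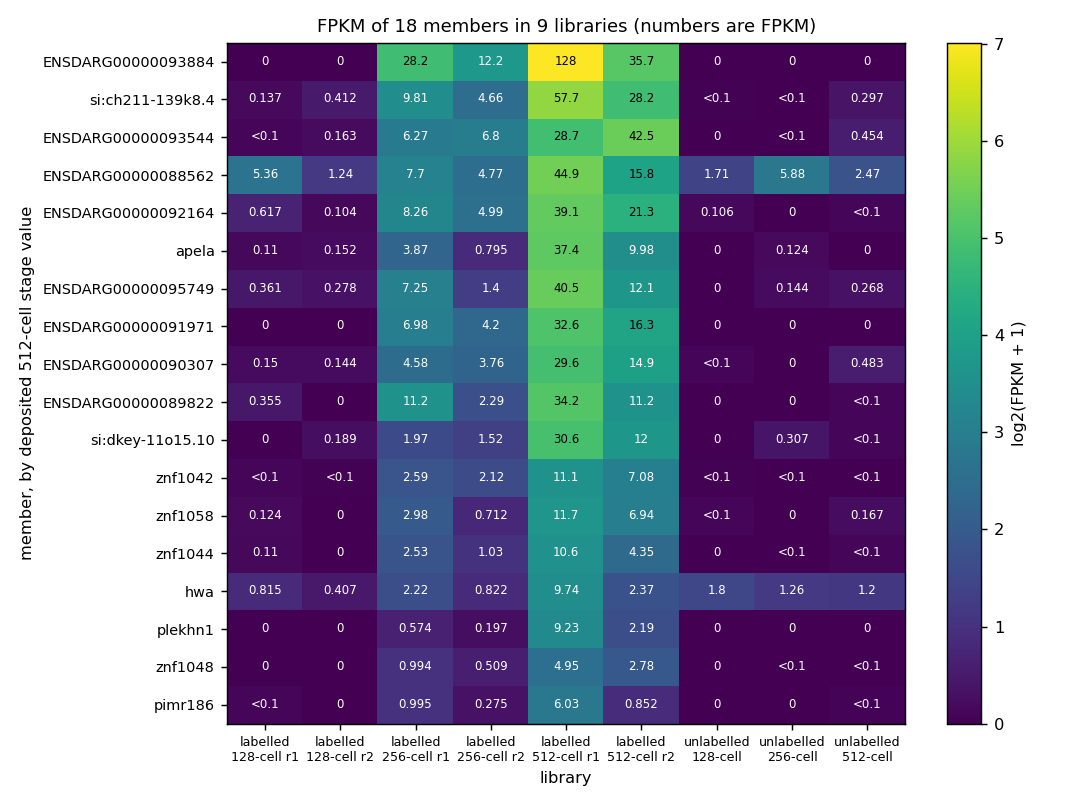
FPKM of 18 members (rows, ordered by the per-stage 512-cell value) in the 9 libraries (columns); the colour is log2(FPKM + 1) and the numbers are FPKM. Only hwa and ENSDARG00000088562 have 1 FPKM or more in an unlabelled or a labelled 128-cell library.

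Among members with a known signalling role, apela (ENSDARG00000094729) encodes Apela, also called Toddler or Elabela, a short secreted peptide that acts through the apelin receptor and guides cell movement in zebrafish gastrulation. It was at 0.110 and 0.152 FPKM in the labelled 128-cell replicates, 3.87 and 0.795 FPKM at 256-cell and 37.4 and 9.98 FPKM at 512-cell. In unlabelled RNA it was listed at 0 at 128-cell and 512-cell and at 0.124 FPKM at 256-cell. Both labelled 512-cell values lay above all other libraries, and the 256-cell share was 10.4% and 7.96% within the replicates. The receptor gene aplnrb, an older ID, was at 3.68 and 0.879 FPKM at 128-cell, 52.2 and 9.20 FPKM at 256-cell and 253 and 48.98 FPKM at 512-cell in labelled RNA. At each stage aplnrb was thus above its ligand in both replicates on the per-length scale. Whether both RNAs were captured equally well was not tested.

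hwa (ENSDARG00000094542) encodes Huluwa, a membrane protein known in zebrafish as a maternal determinant of the dorsal side that stabilises beta-catenin. It was at 0.815 and 0.407 FPKM in labelled 128-cell RNA, 2.22 and 0.822 FPKM at 256-cell and 9.74 and 2.37 FPKM at 512-cell. In unlabelled RNA it was at 1.80, 1.26 and 1.20 FPKM in stage order, which exceeded both labelled values at 128-cell and the value of replicate 2 at 256-cell. Its unlabelled 512-cell value was 19.8% of the mean of the labelled 512-cell libraries, the highest share of the 50 members. The part of stored maternal RNA in its labelled values was not tested.

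plekhn1 (ENSDARG00000087844), a gene for a protein with a pleckstrin homology domain, was listed at 0 in both labelled 128-cell libraries and in all 3 unlabelled ones. It was at 0.574 and 0.197 FPKM in labelled 256-cell RNA and at 9.23 and 2.19 FPKM at 512-cell. Its per-stage share at 256-cell, 4.96%, was the lowest of the members. pimr186 (ENSDARG00000095734), of the Pim-related serine/threonine kinase family, was at 0.0927 FPKM and 0 at 128-cell, 0.995 and 0.275 FPKM at 256-cell and 6.03 and 0.852 FPKM at 512-cell. The lower 512-cell library of pimr186 was below the higher 256-cell library, and it was at most 0.0432 FPKM in unlabelled RNA. Because it reached 1 FPKM in 1 library alone, pimr186 was the 1 member left out of the tests. Its family has many similar copies, so reads may have been split between them.

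The 4 zinc-finger genes shared the rise by stage that the rule set for every member. Within replicate 2 the 256-cell share of the 512-cell value was 10.3% for znf1058 and 30.0% for znf1042. znf1042 (ENSDARG00000089814) was at 0.0654 and 0.0311 FPKM in labelled 128-cell RNA, 2.59 and 2.12 FPKM at 256-cell and 11.1 and 7.08 FPKM at 512-cell. znf1058 (ENSDARG00000093994) was at 0.124 FPKM and 0, then 2.98 and 0.712 FPKM, then 11.7 and 6.94 FPKM. znf1044 (ENSDARG00000092080) was at 0.110 FPKM and 0, then 2.53 and 1.03 FPKM, then 10.6 and 4.35 FPKM. C2H2 zinc-finger proteins bind DNA through repeated finger modules, and near-identical copies of such genes can share reads in counts of this kind. znf1048 (ENSDARG00000091994) was lowest, at 0 in both 128-cell libraries, 0.994 and 0.509 FPKM at 256-cell and 4.95 and 2.78 FPKM at 512-cell. In unlabelled RNA the 4 genes were at 0.167 FPKM or less in every library, and their 512-cell labelled libraries did not overlap those of any other group.

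The member with the highest per-stage 512-cell value was ENSDARG00000093884, which has no symbol. It was listed at 0 in both labelled 128-cell and all 3 unlabelled libraries, at 28.2 and 12.2 FPKM in labelled 256-cell RNA and at 128 and 35.7 FPKM at 512-cell. ENSDARG00000091971 was likewise at 0 in those 5 libraries, and had 6.98 and 4.20 FPKM at 256-cell and 32.6 and 16.3 FPKM at 512-cell. With plekhn1 these were the 3 members at 0 in all 5.

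The clone-named gene si:ch211-139k8.4 was the next highest, at 0.137 and 0.412 FPKM at 128-cell, 9.81 and 4.66 FPKM at 256-cell and 57.7 and 28.2 FPKM at 512-cell in labelled RNA, with 0.297 FPKM in unlabelled 512-cell RNA. ENSDARG00000093544 went against the order of the replicates, with 6.27 and 6.80 FPKM at 256-cell and 28.7 and 42.5 FPKM at 512-cell. ENSDARG00000088562 was the member with most RNA outside the late stages, at 5.36 and 1.24 FPKM in labelled 128-cell RNA. It stood at 1.71, 5.88 and 2.47 FPKM in unlabelled RNA, where the 256-cell value lay between the labelled 256-cell values of 7.70 and 4.77 FPKM. Its labelled 512-cell libraries, at 44.9 and 15.8 FPKM, were above all of these.

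The other 5 of the most abundant members without an ordinary symbol were at 29.6 to 40.5 FPKM in labelled 512-cell replicate 1 and at 11.2 to 21.3 FPKM in replicate 2. ENSDARG00000092164 had 8.26 and 4.99 FPKM at 256-cell, and ENSDARG00000090307 had 4.58 and 3.76 FPKM. ENSDARG00000095749 and ENSDARG00000089822 differed more between replicates at 256-cell, with 7.25 and 1.40 FPKM and with 11.2 and 2.29 FPKM. si:dkey-11o15.10 had the smallest per-stage 256-cell share of these 5 (6.45%), with 1.97 and 1.52 FPKM at 256-cell against 30.6 and 12.01 FPKM at 512-cell. The 32 members not described singly ranged in labelled 512-cell RNA from 3.503 to 19.1 FPKM in replicate 1 and from 0.316 to 17.1 FPKM in replicate 2, with medians of 8.89 and 4.10 FPKM. At 128-cell they were at 0.378 FPKM or less in replicate 1 and at 0.462 FPKM or less in replicate 2.

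**Figure D3:**
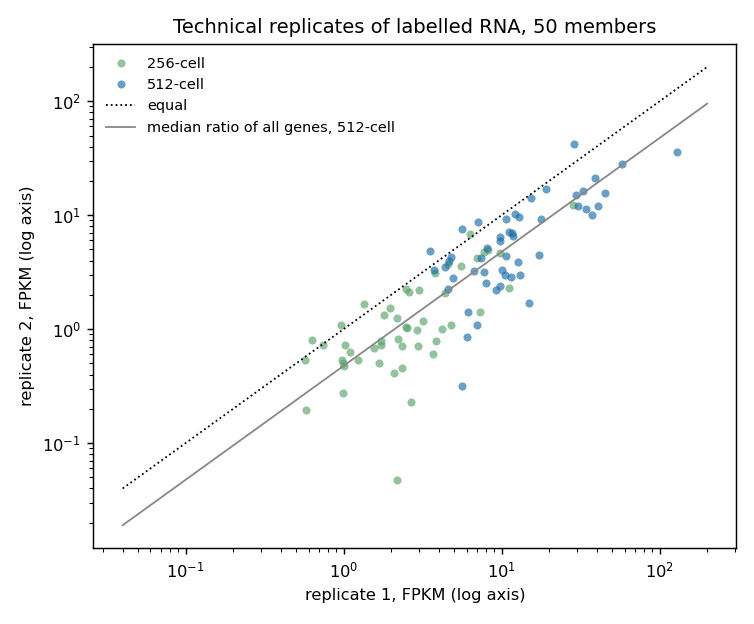
Labelled replicate 2 against replicate 1 in FPKM (log axes) for the 50 members at 256-cell (green) and 512-cell (blue), with a dotted line of equal values and a grey line at the median ratio of all genes at 512-cell. The members scatter on both sides of the grey line, and ENSDARG00000092441 lies far below it at both stages.

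The median ratio between the technical replicates of the members was close to that of other genes, while single members varied widely. The spread around the median was not compared with that of other genes. At 512-cell replicate 1 was a median of 2.02 times replicate 2 over the members (0.676 to 17.7), and at 256-cell 2.15 times (0.796 to 46.1); over all genes at 1 FPKM or more in both replicates the medians were 2.0996 and 2.101. Replicate 2 was at or above replicate 1 at 512-cell for 4 members, ENSDARG00000093544, ENSDARG00000094572, ENSDARG00000089499 and ENSDARG00000086389, against 6.12% of 5525 genes. The widest gap was that of ENSDARG00000092441, at 2.19 and 0.0475 FPKM at 256-cell and at 5.61 and 0.316 FPKM at 512-cell. Across the 50 members, the log2 ratio of replicate 1 to replicate 2 was correlated between 256-cell and 512-cell. The Pearson correlation was 0.73 and the Spearman correlation 0.67. The members share libraries and so are not independent. Over 7697 genes the replicates' deviations at the same stages had a Pearson correlation of 0.76.

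Labelled and unlabelled RNA were then compared at each stage. FPKM is relative to the size of each library, so the comparison does not measure how much RNA was recovered through the label. At 512-cell the all-gene median log2 difference was 0.73 without rescaling the libraries and 0.05 with median-of-ratios size factors. Differences are on the fitted log2(FPKM + 1) scale, which understates the change of low genes. With 1 unlabelled library per stage, its spread was taken to equal that of the labelled technical replicates, and p-values measure technical spread only. The reported fit did not rescale the libraries, so this spread includes the difference in overall level between replicates. Over genes at 1 FPKM or more in both, replicate 1 was a median of 2.0996 times replicate 2 at 512-cell and 2.101 times at 256-cell. The SEs and adjusted p-values of that fit carry this difference. Of the 50 members 49 passed the filter of 1 FPKM in at least 2 libraries, and 24 of them did so only through the labelled 512-cell libraries; the counts below are therefore descriptions of those tested.

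At 256-cell the rule sets only an upper bound on the labelled level, but it also holds the labelled 128-cell level low. The median of the members in the unlabelled 256-cell library was 0.00170 FPKM, against 1.35 FPKM over all genes. This comparison is therefore a description, and nothing is read from its counts. Most members stood above the unlabelled library, without a call in the reported fit. Both labelled libraries exceeded the unlabelled one for 48 of 50 members, against 53.6% of 7697 tested genes; the exceptions were hwa and ENSDARG00000088562. The median log2 difference was 1.34 with a median SE of 0.60, against 0.43 over all tested genes. The difference was above 0 in 49 of 49 members (0.04 to 4.30) and in 6129 of 7697 tested genes. In the unlabelled 256-cell library 22 of 50 members were at 0, so their difference could not be negative. By limma with Benjamini-Hochberg adjustment 0 of 49 members were called higher, against 1.13% of all tested genes. At an unadjusted limma p under 0.05, 23 members and 301 of all 7697 tested genes were higher. ENSDARG00000093884 had a log2 difference of 4.30 ± 0.87 (SE, 2 labelled libraries and 1 unlabelled), and ENSDARG00000093544 had 2.89 ± 0.60. For znf1042 the difference was 1.74 ± 0.49 and for apela 1.40 ± 0.81. Of these, apela passed the filter only through the labelled 512-cell libraries. The count depended on the fit, and so did the share of all tested genes called. With the replicate number as a block 42 of 49 members were called, against 45.6% of all tested genes. With a pseudocount of 0.1 it was 13 of 49 against 2.04%, and with median-of-ratios size factors 5 of 50 against 1.35%. Leaving out replicate 2 of the labelled 256-cell stage gave 13 of 49 against 3.13%. Leaving out a 512-cell library gave 8 of 42 against 2.17% (replicate 1) or 10 of 43 against 2.22% (replicate 2). Leaving out replicate 1 of 256-cell gave 1 of 48 against 1.5%, and leaving out a 128-cell library gave 1 of 49 against 1.86% (replicate 1) or 1.81% (replicate 2). Without replicate 1 of the labelled 256-cell stage the median difference was 0.85 for the members and 0.06 for all tested genes, and that of apela was 0.68. In that fit, and with either other scaling of the libraries, the differences of hwa and ENSDARG00000088562 were below 0.

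**Figure D4:**
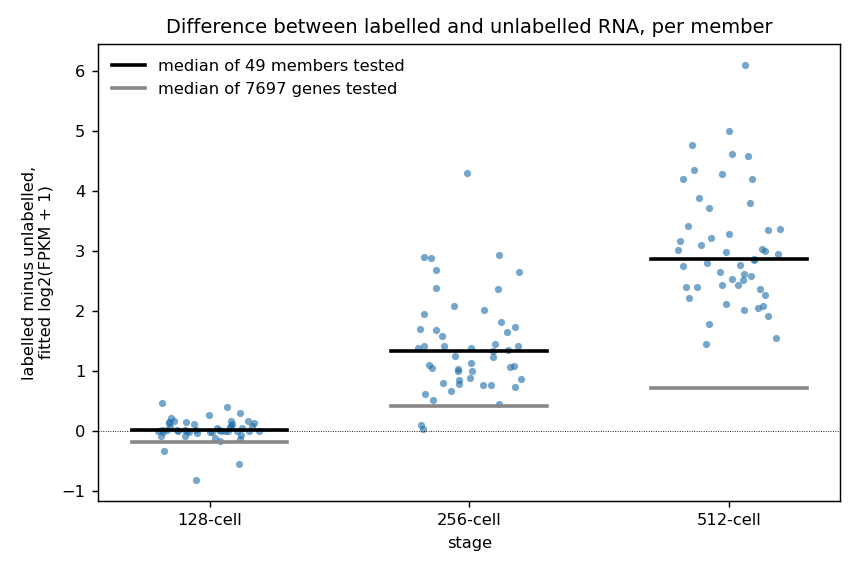
Fitted difference between labelled and unlabelled RNA on the log2(FPKM + 1) scale (vertical axis) for each of the 49 tested members at the 3 stages, with the median of the members in black and of 7697 tested genes in grey. The members' median goes from 0.03 at 128-cell to 1.34 at 256-cell and 2.87 at 512-cell.

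At 128-cell the rule held the labelled level far below that at 512-cell, so this comparison is a description too, and nothing is read from its counts. Both labelled libraries exceeded the unlabelled one for 14 of 50 members, against 17% of tested genes. The median log2 difference was 0.03, against -0.18 over all tested genes. The difference was above 0 in 27 of 49 members and in 2739 of 7697 tested genes. Members at 0 in every 128-cell library had a difference of exactly 0, so the rest were not all negative. By limma 0 of 49 were called in either direction, against 0.078% called higher among all tested genes. An unadjusted limma p under 0.05 for higher was found for 0 members and for 72 of 7697 tested genes. The lowest value was that of hwa, at -0.81 ± 0.73 (SE).

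At 512-cell the rule chose the labelled side, so the comparison is a description. The labelled libraries were both above the unlabelled one for 50 of 50 members, against 73.4% of tested genes. The median log2 difference was 2.87 (1.45 to 6.11), against 0.73 over all tested genes. It was 6.11 ± 0.87 (SE) for ENSDARG00000093884, 4.36 ± 0.81 for apela, 3.29 ± 0.49 for znf1042, 2.51 ± 0.61 for plekhn1 and 1.45 ± 0.73 for hwa. For hwa it was 0.62 without labelled 512-cell replicate 1, 2.29 without replicate 2, 0.65 with median-of-ratios size factors and 0.76 with all libraries set to 1 sum outside the mitochondrial genome. The fit called 36 of 49 members higher, against 3.72% of all tested genes, and 0 lower, against 0.221%; nothing is read from these counts. Without the mean-variance trend it called 14 of 49, against 2.07% of all tested genes, and with the libraries set to 1 sum 7 of 50, against 1.69%. With median-of-ratios size factors it called 44 of 50, against 9.27%, and with a pseudocount of 0.1 it called 42 of 49, against 6.13%.

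The early-onset genes of the same ID range were higher in level throughout, with a median of 351 and 221 FPKM in the labelled 512-cell libraries. Their median labelled-minus-unlabelled log2 difference was 1.51 at 128-cell, 6.06 at 256-cell and 6.28 at 512-cell. At 256-cell 54 of 118 were called higher, against 1.13% of all tested genes. The long-annotated late-onset genes were close to the members in these summaries, with 0.07, 1.34 and 3.16 and with 0 of 103 called at 256-cell. The limit on the 256-cell share sets the early-onset genes apart from the members and is shared by the long-annotated genes. The 256-cell contrasts follow in part from that limit, so nothing is read from them. The difference between these sets and the members was not tested.

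The rule did not use the unlabelled libraries, but it held the labelled 128-cell level of the members low. The unlabelled values of the members by stage are therefore given as a description. The 512-cell library was above the 128-cell library for 35 of 50 members, below it for 9 and equal for 6, whereas it was above for 6.56% of all 8969 genes. Against the 256-cell library it was above for 36 of 50, compared with 15.8% of all genes. The medians of the members were 0.000832, 0.00170 and 0.0968 FPKM in stage order, while those of all genes were 2.52, 1.35 and 0.836 FPKM. Members at 0 numbered 25, 22 and 7 of 50, against 3.43%, 4.00% and 3.94% of all genes. More members were thus above 0 in the unlabelled 512-cell library, and whether read depth differed between these libraries is unknown. The 25 members at 0 in the unlabelled 128-cell library could not be lower at 512-cell, so nothing is read from the counts above and below. Where both libraries were above 0, the 512-cell to 128-cell ratio had a median of 1.77 over 24 members and 0.332 over 8473 genes. These values depend on how the libraries are scaled, and 2 other scalings were chosen for them after seeing the data. With median-of-ratios size factors 41 of 50 members and 51.9% of all genes were above, with median ratios of 5.53 and 1.04. With 1 sum outside the mitochondrial genome it was 40 of 50 and 22.2%, with median ratios of 3.53 and 0.664.

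**Figure D5:**
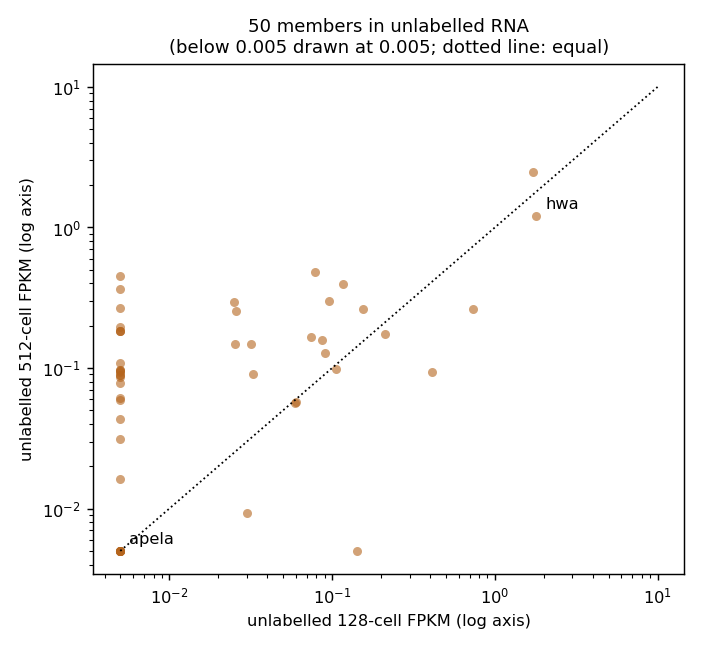
Unlabelled 512-cell against unlabelled 128-cell FPKM (log axes) for the 50 members, with a dotted line of equal values. Above the line lie 35 members, many of them at 0 in the 128-cell library, and hwa lies below it.

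There is 1 unlabelled library per stage, so this stage difference has no replicate check and no test. Among the early-onset genes 69.5% were higher in the unlabelled 512-cell library than in the 128-cell one, and among the long-annotated late-onset genes 44.7%. The unlabelled 512-cell value of a member was a median of 1.43% of the mean of its labelled 512-cell libraries, and above 5% for 4 members: hwa, ENSDARG00000088562 (8.14%), ENSDARG00000089499 (5.97%) and ENSDARG00000088392 (5.85%). In the early-onset and long-annotated sets the medians were 0.604% and 0.903%. ENSDARG00000090307 and ENSDARG00000093544 had the highest unlabelled 512-cell values after hwa and ENSDARG00000088562, at 0.483 and 0.454 FPKM, against 0.0790 FPKM and 0 at 128-cell. The source of these low values was not tested.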

How the data were processed

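Per the labels' protocols, captured RNA was amplified as cDNA before library preparation with 15 PCR cycles. Values are FPKM as deposited by the authors, and the submitters' processing notes name Cufflinks 2.0.2, TopHat 1.3.3 and CASAVA 1.7 with the Zv9 build. The annotation version, filters, strand handling and the scaling between libraries and stages are not given in the sources used here. Low values were searched for steps of whole reads, and no step was found: at most 1.36% of low genes fell in a bin of 0.01 on the log2 scale of the ratio between 2 libraries, so read depth is unknown and no counting interval is given.

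The members, lists and comparisons were chosen with earlier results of these data known. Symbols came from a table of gene IDs. Members described singly were those with an ordinary symbol and the 10 others highest at 512-cell. The 7697 genes that reached 1 FPKM in 2 or more of the 9 libraries were tested as log2(FPKM + 1) with limma 3.58.1 in R 4.3.3. The fit used group means of all 9 libraries, a mean-variance trend and two-sided tests, and called genes at 0.05 after Benjamini-Hochberg adjustment across the 7697. The replicates' deviations correlated across stages (Pearson 0.66 to 0.76 over 7697 genes), but what libraries of the same number share is not given in the labels, and the unlabelled libraries carry number 1 alone. Alternatives covered the pseudocount, filter, scaling, trend, block and each labelled library. Protein, promoter and motif sequences were not analysed here.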

Additional observations from a re-analysis of the deposited data

How the results depend on the processing

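The direction of each median difference held under the alternatives run, except that at 128-cell it was 0 without labelled 128-cell replicate 1. Many counts of calls moved, and the causes were not tested. With a pseudocount of 0.1 the median log2 differences became 5.09 at 512-cell, 3.61 at 256-cell and 0.16 at 128-cell. That setting called 42 of 49 members at 512-cell, against 6.13% of all tested genes, and 13 of 49 at 256-cell, against 2.04%. Median-of-ratios size factors called 44 of 50 at 512-cell, against 9.27%, and 5 of 50 at 256-cell, against 1.35%. They moved the all-gene median at 512-cell from 0.73 to 0.05. With 1 sum outside the mitochondrial genome 7 of 50 members were called at 512-cell, against 1.69%, and the 128-cell median was 0.0613. Without the trend 14 of 49 were called at 512-cell, against 2.07%. With replicate number as a block, which assumes that the unlabelled libraries belong to number 1, 49 members were called at 512-cell, 42 at 256-cell and 0 at 128-cell, with medians of 3.24, 1.58 and 0.29, against 66.3%, 45.6% and 10.2% of all tested genes called higher. Leaving out 1 labelled library gave medians of 2.71 to 3.48 at 512-cell, 0.85 to 1.74 at 256-cell and 0 to 0.0312 at 128-cell. Among the 17 tested members described singly, 510 values under these alternatives kept the call and did not change sign. Of the rest, 66 gained a call, 13 lost it and 11 changed sign. The 510 include 128-cell values of members whose reported difference was exactly 0, which had no direction to keep. With the replicate block those of plekhn1 and znf1048 were 0.35 and 0.18. None of those 11 was called by limma, as reported or under the alternative. At 256-cell ENSDARG00000088562 went from 0.04 to -0.47 (size factors), -0.34 (1 sum) and -0.25 to 0.34 (leaving out a library), and hwa from 0.10 to -0.28, -0.0935 and -0.31 to 0.51. At 128-cell znf1058 went from -0.02 to 0.0627 (1 sum), 0.33 (block) and -0.10 to 0.0660 (leaving out a library). There, leaving out a library took ENSDARG00000088562 from 0.48 to between -0.28 and 1.23, and ENSDARG00000092164 from 0.27 to between -0.00324 and 0.55. With 2 technical replicates and 1 unlabelled library per stage, levels under 1 FPKM limit what can be told apart.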
